A study of Caenorhabditis elegans with 2 samples.

Results

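The regions described are the tRNA genes of Caenorhabditis elegans that lie in intergenic sequence, and the measurement is where the chromatin protein FLT-1 was found at them in early embryos. They are the genes of biotype tRNA in Ensembl, on the nuclear chromosomes of the WBcel235 assembly (the same sequence as ce11), whose span overlaps no protein-coding gene. The rule gave 319 genes out of 612 nuclear tRNA genes, and the other 293 tRNA genes, which lie inside protein-coding genes, are the set most like them. FLT-1, also named BAZ-2, was followed by chromatin immunoprecipitation with sequencing. The strain was OP797, which carries the integrated transgene wgIs797, a fosmid copy of flt-1 tagged with TY1, EGFP and 3xFLAG together with unc-119(+), in an unc-119(tm4063) background. The tagged protein was therefore made from a transgene, and the labels do not say whether the gene at its own locus was altered. Whole early embryos of 1 hour were collected by egg bleaching, sonication cut the chromatin to 200 to 800 bp, and an anti-GFP antibody pulled down the bound DNA. All samples belong to this 1 group, with biological replicates 1 and 2 and no second condition, and no control library was analysed here. Sequencing depth is unknown, because the deposited peak lists hold no read counts. No marker of the labelled stage can be checked in peak lists.

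A tRNA gene is transcribed by RNA polymerase III from signals that lie inside the gene. The factor TFIIIC binds the A box, near the start of the transcribed sequence, and the B box, nearer its end, and then places TFIIIB just before the gene, where it recruits the polymerase. Transcription ends at a run of T on the gene's strand. Worm tRNA genes are dispersed over the chromosomes and many copies have identical sequence, so the sequence before the gene is often what tells copies apart.

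Of the 319 intergenic tRNA genes, 138 (43.3%, exact 95% interval 37.8% to 48.9%) had an FLT-1 summit, the point that the authors' files give within each peak, within 250 bp of the gene in the thresholded list made from both replicates together. The same distance gave 3.28% of all 46890 nuclear genes. The summits lay over the start of the gene, and the median one was 14 bp past its first base. Genes with a summit and genes without one differed in the bases just before the gene, which held less A and T and more often a CTCTC or GAGAG repeat. In the pooled list the intervals of the shares overlapped between chromosomes, between distances to a protein-coding gene and between genes with and without each match inside the gene. These are descriptions: with 1 group there is no test between conditions, genes are not replicates, and all intervals cover counting error only.

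The sequences of 3 genes with a strong signal serve as examples of these features. The 3 below are the strongest members that could be printed, each with the 100 bases before the gene and the 20 bases after it, 5′ to 3′ on the gene's strand, from the RefSeq sequence of WBcel235. Capitals mark, in order, every CTCTC or GAGAG before the gene, the A box core, the B box core and the T run. The A box core was searched on the gene's strand as TNGNNNA and held by 314 of the 319 intergenic tRNA genes, the B box core as GTTCNANNC and held by 305, and a T run as TTTT within 50 bases after the gene and held by 314. The first is a leucine tRNA gene at chrX:13665455-13665693 on the plus strand, the second an isoleucine tRNA gene at chrV:12002076-12002280 on the plus strand, and the third an alanine tRNA gene at chrX:6292258-6292449 on the minus strand.
C04A11.t1: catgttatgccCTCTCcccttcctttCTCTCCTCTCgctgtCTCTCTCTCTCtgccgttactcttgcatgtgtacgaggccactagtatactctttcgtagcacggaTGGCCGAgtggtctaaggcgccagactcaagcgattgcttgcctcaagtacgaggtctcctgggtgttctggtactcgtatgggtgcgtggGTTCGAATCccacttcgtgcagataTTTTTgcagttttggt
F57F5.t1: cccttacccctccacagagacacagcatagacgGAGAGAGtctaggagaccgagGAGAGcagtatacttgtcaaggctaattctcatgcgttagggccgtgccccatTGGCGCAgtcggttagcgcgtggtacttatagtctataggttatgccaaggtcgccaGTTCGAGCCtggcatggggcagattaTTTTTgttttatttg
T07H6.t2: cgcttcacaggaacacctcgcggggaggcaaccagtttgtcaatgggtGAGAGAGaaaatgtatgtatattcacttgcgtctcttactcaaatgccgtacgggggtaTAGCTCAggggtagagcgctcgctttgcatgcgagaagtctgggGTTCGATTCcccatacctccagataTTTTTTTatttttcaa

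All 3 hold the repeat before the gene, while 72 of the 138 genes with a summit do not, so they do not stand for all. C04A11.t1 had a pooled signal of 446 and 232 and 197 in replicates 1 and 2. F57F5.t1 had 364 pooled, with 203 and 156, and T07H6.t2 had 363 pooled, with 182 and 176. C04A11.t1 was the highest of all intergenic tRNA genes in each of the 3 lists.

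The second set of sequences sets copies with an identical gene against each other, so that the letters of the gene itself are the same. The copies still differ in surrounding sequence, in distance to other tRNA genes and protein-coding starts and, for glycine and lysine, in chromosome. For each of the 3 most numerous identical sequences that had copies of both kinds, the strongest copy with a summit comes first and the first copy without one, by coordinate, comes second. For glycine the first such copy, C12C8.t5, is not printed, and the first that could be printed stands in its place. Each line is the 100 bases before the gene, 5′ to 3′ on the gene's strand, from RefSeq WBcel235, with CTCTC and GAGAG in capitals. The glycine pair is at chrX:3036064-3036163 (plus) and chrIV:16681907-16682006 (plus), the lysine pair at chrX:12106220-12106319 (minus) and chrIV:15793315-15793414 (plus), and the proline pair at chrX:9467801-9467900 (minus) and chrX:8969560-8969659 (minus).
M02F4.t1: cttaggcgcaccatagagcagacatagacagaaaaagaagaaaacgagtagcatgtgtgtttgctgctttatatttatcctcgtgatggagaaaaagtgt
Y51H4A.t3: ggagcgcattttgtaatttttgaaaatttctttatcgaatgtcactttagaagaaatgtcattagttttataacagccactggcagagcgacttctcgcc
W03G11.t1: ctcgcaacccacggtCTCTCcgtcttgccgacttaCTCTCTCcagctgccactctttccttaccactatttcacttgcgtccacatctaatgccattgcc
Y105C5A.t1: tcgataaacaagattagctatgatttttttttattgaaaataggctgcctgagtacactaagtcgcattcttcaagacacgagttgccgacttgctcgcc
ZK899.t1: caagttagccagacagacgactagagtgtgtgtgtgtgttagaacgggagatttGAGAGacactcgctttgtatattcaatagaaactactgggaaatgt
C48C5.t3: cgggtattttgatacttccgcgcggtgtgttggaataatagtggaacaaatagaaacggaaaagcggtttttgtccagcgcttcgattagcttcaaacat

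The lysine copy W03G11.t1 had a pooled signal of 377 and an AT content of 47.0% in the window shown, and the copy Y105C5A.t1 had no summit and 60%. The proline copy ZK899.t1 had a signal of 243 and 58.0%, and C48C5.t3 had no summit and 57%, so this pair differs in the repeat and hardly in AT content. The pair also differs in place. The nearest other tRNA gene is 93287 bp from ZK899.t1 and 178 bp from C48C5.t3, and the nearest coding start 4455 and 8389 bp. The glycine copy M02F4.t1 had a signal of 260 and 60%, and Y51H4A.t3 had no summit and 63.0%, and neither holds the repeat. The summit of M02F4.t1 lay 27 bp before the gene and is shared with the neighbouring glutamate gene M02F4.t2, so its signal is not that of M02F4.t1 alone. The glycine copy C12C8.t5 had no summit, 69% and a ranked region of signal 60. The copies without a summit still had a region in the pooled ranked list, which holds regions before the authors' threshold, with signals of 39.3 at Y105C5A.t1, 22.6 at C48C5.t3 and 39.6 at Y51H4A.t3. That list holds 48126 nuclear regions with a median signal of 19.9, so a region there says little by itself.

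The share of intergenic tRNA genes with a summit was of like size in each replicate's own list. Replicate 1 had a summit at 122 of 319 (38.2%, 32.9% to 43.8%), against 2.22% of all nuclear genes. Replicate 2 had one at 108 of 319 (33.9%, 28.7% to 39.3%), against 2.35%. The tRNA genes inside protein-coding genes gave 133 of 293 (45.4%, 39.6% to 51.3%) in the pooled list, 112 (38.2%) in replicate 1 and 98 (33.4%) in replicate 2. The intervals of both sets overlap in every list.

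The 138 genes shared 124 separate summits, which were 11.4% of the 1083 peaks of the list. Of these, 14 summits each lay within reach of 2 genes, so 28 genes share a summit and are not independent. The median signal at the 138 genes was 139 (quartiles 81.1 and 204, range 49.3 to 446), against 123 at the tRNA genes inside protein-coding genes and 68.9 at the 832 peaks near no tRNA gene. Of the 124 summits, 97 (78.2%) lay at or above the list's median signal of 75.4. Signal is a value that the authors gave to each peak on an unstated scale, and it is compared only within a list.

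Below the threshold, 105 of the 181 other genes had a region in the pooled ranked list, and 44 of the 319 had none in any ranked list. The pooled ranked list holds 48126 nuclear regions, and the share of all nuclear genes near one was not computed. These counts are therefore not shown to be particular to tRNA genes. The members of the list with the lowest signal were F28H6.t2 (histidine), T08A9.t1 (alanine), F10C1.t1 (glycine) and T28D6.t2 (valine) with pooled signals of 51.2, 51.1, 50.4 and 49.3. The genes with no summit and the highest signal in the ranked list were F11A1.t1 (glutamate), F55F3.t2 (lysine), F42F12.t1 (leucine) and C12C8.t5 (glycine), whose ranked regions had signals of 61.9, 61.7, 60.9 and 60. The authors' score, a whole number up to 1000, was 867, 1000, 937 and 977 for the 4 genes inside and 674, 763, 748 and 198 for the 4 genes outside, so the genes outside had the higher signal and the lower score. The lowest score of the whole thresholded list was 831. Score alone does not define that list, since 175 ranked regions at or above its lowest score are not in it, 0 of them near a tRNA gene. By score, the members nearest to 831 inside the list were Y54G2A.t5 (aspartate), F28H6.t5 (histidine) and F28F8.t1 (serine) at 837, 844 and 864, with signals of 52.9, 53.8 and 51.2. Outside it they were Y97E10C.t1 (threonine), M01E10.t2 (glutamate) and T01B4.t2 (valine) at 828, 807 and 780, with signals of 46.9, 44.4 and 47.5.

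The replicates gave largely one set of intergenic tRNA genes. Of the 319, 103 (32.3%, 27.2% to 37.7%) had a summit in both replicates' lists, 19 in replicate 1 alone, 5 in replicate 2 alone and 192 in neither. Of the tRNA genes inside protein-coding genes, 95 of 293 (32.4%) had one in both. The share of all nuclear genes in both lists was not computed, so agreement particular to tRNA genes is not shown. Among the 138 genes of the pooled list, 99 were in both, and their median pooled signal was 173, against 70.8 for the 19 in replicate 1 alone, 66.6 for the 5 in replicate 2 alone and 58.0 for the 15 in neither. Across the 103 genes, signals in the replicates were correlated with a Spearman rho of 0.861 and a Pearson r of 0.844 on log10 values, given as a description since genes share summits and the same libraries. The summits of both replicates lay a median of 12 bp apart, and 73 of 103 within 20 bp.

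**Figure D1:**
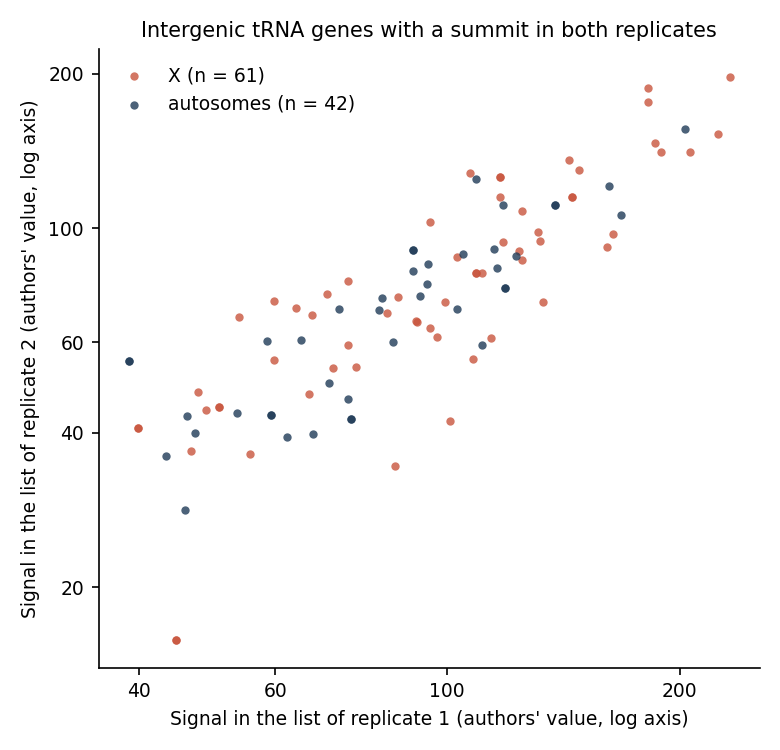
Signal of each intergenic tRNA gene in the list of replicate 1 (x) and of replicate 2 (y), both on log axes and in the authors' units, for the 103 genes with a summit in both, coloured by X (61 genes) or autosomes (42 genes). High genes in one replicate are high in the other, and the low point is the proline pair F46G11.t1 and F46G11.t2 at 44.6 and 15.8.

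A few genes changed rank between replicates. C16B8.t1 (proline) had 101 in replicate 1 and 42.1 in replicate 2, ranks 46 and 91 of 103. T18D3.t1 (alanine) had 85.7 and 34.4, ranks 60 and 100. F41A4.t1 (aspartate) had 111 and 59.4, ranks 36 and 70. All 3 ranked lower in replicate 2.

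The other strong genes came from several amino acids. W03G11.t1 and C33G3.t2 (both lysine, X) had pooled signals of 377 and 375, with 182 and 224 in replicate 1 and 188 and 153 in replicate 2. F28H6.t1 (arginine, X), R01H5.t1 (threonine, X) and F22F1.t6 (methionine, X) had 337, 330 and 316. C42D8.t1 (isoleucine, X) and F56F3.t1 (arginine, III) had 292 and 289. Of the 10 strongest genes, 8 lie on X, beside F57F5.t1 on V and F56F3.t1 on III. X holds 56.4% of all intergenic tRNA genes and 73 of the 138 with a summit. The strongest genes of the remaining chromosomes were F35H8.t1 (arginine) on II with 280, M01E5.t1 (lysine) on I with 215 and B0350.t1 (lysine) on IV with 212.

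The summits marked the start of the gene. Position is counted along the gene's strand with 0 at its first base, and the median gene was 72 bp long. In the pooled list the median position was 14 bp (interval 12 to 16) with quartiles of 8 and 23.8 bp. Replicate 1 gave 13 bp (10 to 16) and replicate 2 gave 17 bp (14 to 22), and the tRNA genes inside protein-coding genes gave 14 bp (12 to 17). The summit lay inside the gene in 112 of 138 genes, before it in 20 and after it in 6. The A box core began at position 7 in 291 of the 319 genes, so the median summit was 7 bp past the start of the A box core, and it was 39 bp short of the start of the B box core. Shifts of this size are smaller than the sonicated fragments, and whether the summit marks a bound site within the gene cannot be read from it.

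Most summits away from the start were at genes with a neighbouring tRNA gene, which the way of counting in part fixes. A summit counts for every gene within 250 bp, so the start of a gene can lie away from that of its neighbour. Of the 138 genes, 26 had the summit more than 20 bp before or more than 40 bp after the first base, and 22 of these had another tRNA gene within 1000 bp. How many of the 22 only took the summit of a neighbour was not counted. Among the 82 genes with a summit and no other tRNA gene within 1000 bp, 78 (95.1%) had it from 20 bp before to 40 bp after the first base. The other 4 were F10C1.t1 at 115 bp, T18D3.t1 at 55 bp, B0228.t1 (glutamine) at 53 bp and ZC132.t1 (glycine) at 42 bp.

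**Figure D2:**
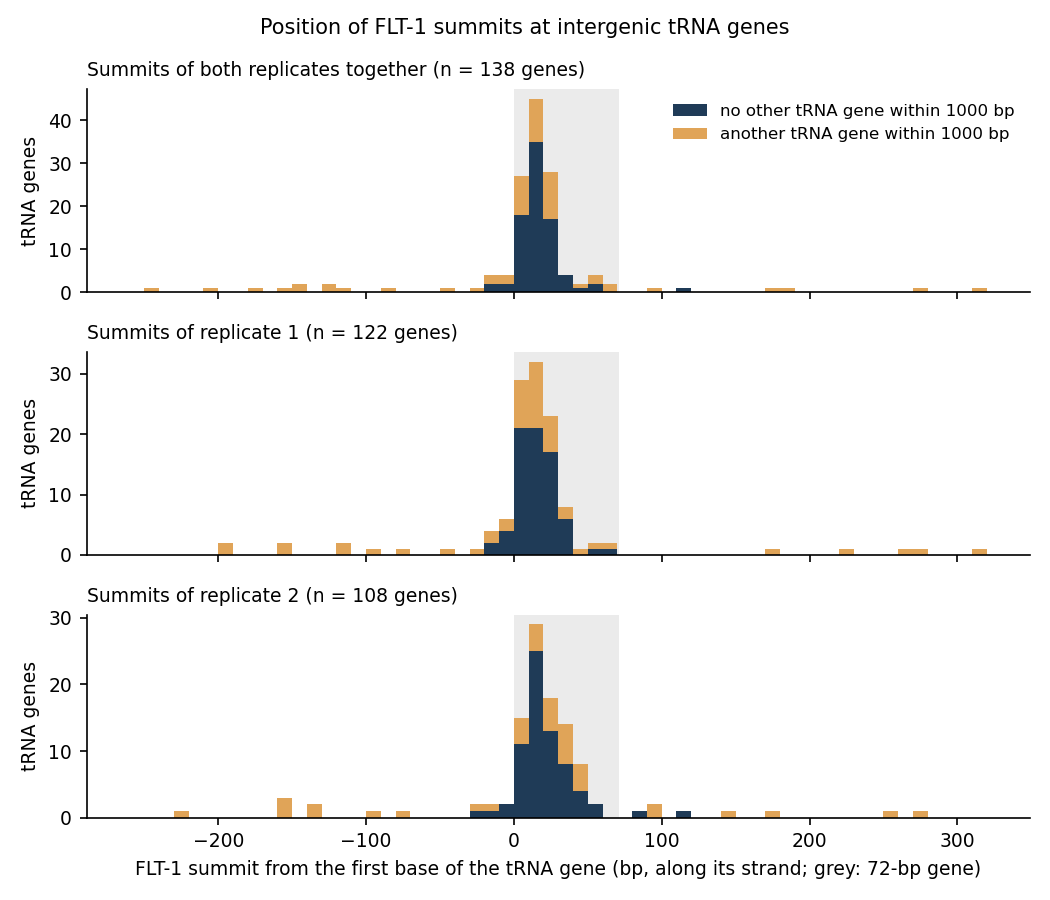
Position of the FLT-1 summit in bp from the first base of the intergenic tRNA gene, along its strand, in the pooled list (138 genes), replicate 1 (122) and replicate 2 (108), as stacked counts of genes in 10-bp bins. Summits pile up over the first part of the gene in each list, and in the pooled list most of those far from it are at genes with another tRNA gene within 1000 bp.

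The bases before the gene showed the clearest difference between genes with and without a summit. This comparison was chosen after values had been seen. In the 100 bases before the gene, the median AT content was 54.5% (interval 53.0% to 56.0%) in the 138 genes with a summit and 63.0% (62.0% to 65.0%) in the 181 without. The share with a summit was 27 of 38 (71.1%, 54.1% to 84.6%) where AT content was below 50%, 77 of 129 (59.7%, 50.7% to 68.2%) from 50% to 59%, 30 of 112 (26.8%, 18.9% to 36.0%) from 60% to 69%, and 4 of 40 (10%, 2.79% to 23.7%) at 70% or more. Below 60% the share was 39.9 percentage points higher than at 60% or more (29.1 to 49.6). Replicate 1 gave 65.8%, 55.8%, 18.8% and 10% over the 4 bins, and replicate 2 gave 60.5%, 48.8%, 17.0% and 7.50%. The order of the bins was the same in each replicate.

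The lower AT content of genes with a summit lay just before the gene. From 500 to 251 bp before it the order was the opposite, with medians of 67.6% with a summit and 66.0% without, 67.8% and 65.6% in replicate 1 and 68.4% and 65.6% in replicate 2. From 250 to 101 bp before the gene the medians were 66.0% with a summit and 65.3% without, inside the first 71 bases of the gene 40.8% in both, and from 100 to under 250 bp past its first base 67.7% and 68.7%. Over the whole stretch from 500 bp before to under 600 bp after the first base they were 63.4% and 64.3%. The tRNA genes inside protein-coding genes had 53.0% with a summit and 62.0% without in the 100 bases before the gene. In genes with a summit C made up a mean of 26.6% of these bases and A 24.9%, against 20.6% and 30.3% without, while G was 18.3% against 16.9% and T 30.2% against 32.2%.

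**Figure D3:**
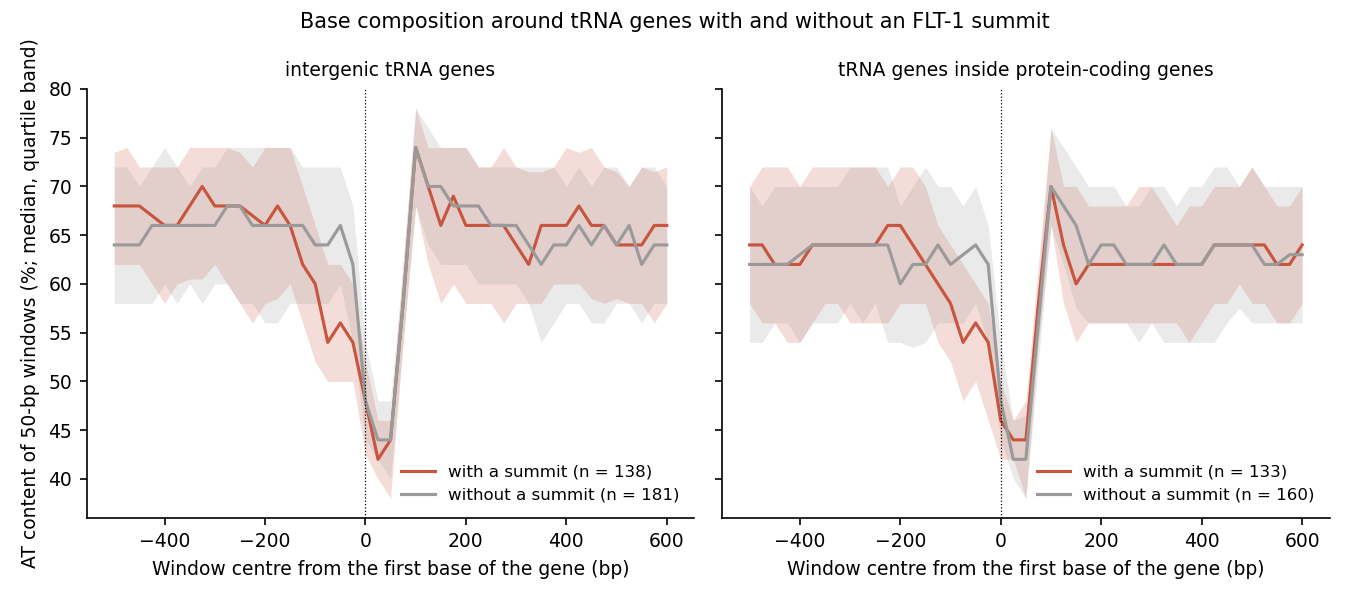
AT content in 50-bp windows (median line, quartile band) by distance of the window's centre from the first base of the gene, for genes with and without a summit, in intergenic tRNA genes (left) and tRNA genes inside protein-coding genes (right). The lines part most in the stretch just before the gene, where the medians of the 100 bases are 54.5% with and 63.0% without a summit at intergenic genes.

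The difference held within the other groupings. On X the share with a summit was 63.9% (53 of 83) below 60% AT and 20.6% (20 of 97) at 60% or more, and on autosomes 60.7% (51 of 84) and 25.5% (14 of 55). For genes with another tRNA gene within 1000 bp it was 51.6% (32 of 62) and 27.9% (24 of 86), and for genes without one 68.6% (72 of 105) and 15.2% (10 of 66). Among copies of 1 sequence, 33 sets held genes both with and without a summit, 207 genes in all. The median AT content before the gene was lower in the copies with a summit in 29 of the 33 sets and higher in 4, and the median difference was -8.00 percentage points. The largest set, 29 identical glycine genes of which 17 are intergenic, had 56.0% in 8 copies with a summit and 65.0% in 9 without. In the lysine set of 25, of which 13 are intergenic, it was 50% in 8 with and 66.0% in 5 without. Signal varied the same way. Among the 138 genes with a summit AT content and signal had a rho of -0.305, with -0.237 over the 122 genes of replicate 1's list and -0.325 over the 108 of replicate 2's, and across the 243 genes with a pooled ranked region, 105 of them without a summit, it was -0.415. These are descriptions over genes that share libraries and, in part, summits.

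A short repeat was more frequent before genes with a summit than before genes without one. All 512 pairs of 5-base words and their reverse complements were ranked on the 293 tRNA genes inside protein-coding genes, by the share of genes holding the word in the 100 bases before the gene with and without a summit. The first word was CTCTC, or GAGAG on the other strand, held by 45.1% with and 17.5% without a summit there. The intergenic tRNA genes had no part in that choice, though copies of 1 sequence occur in both sets and all share the same libraries. Among them it was held by 66 of 138 (47.8%, 39.3% to 56.5%) with a summit and 26 of 181 (14.4%, 9.60% to 20.3%) without, and it ranked 2 of 512. The first on the intergenic genes was AGAGA, or TCTCT, which overlaps it, with 54.3% and 17.1%. As background, the word was held by 17.0% of windows of the same length before 29773 protein-coding transcript starts and by 12.4% of windows tiled over the nuclear chromosomes. It was held by 33.3% of 100-bp windows around the 832 summits near no tRNA gene, whose median AT content was 50%, against 65.0% for the tiled windows.

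Genes that held the repeat had a summit more often, clearly so where AT content was below 60%. Of the 92 intergenic tRNA genes with the word, 66 (71.7%, 61.4% to 80.6%) had a summit, against 72 of 227 (31.7%, 25.7% to 38.2%) without it, a difference of 40 points (27.8 to 50.8). Replicate 1 gave 66.3% with the word and 26.9% without, and replicate 2 gave 63.0% and 22.0%. Below 60% AT the shares were 57 of 74 (77.0%) with the word and 47 of 93 (50.5%) without, and at 60% or more 9 of 18 (50%) and 25 of 134 (18.7%). At 60% or more the word rests on 18 genes, and the intervals overlap narrowly in the pooled list (26.0% to 74.0% with the word, 12.5% to 26.3% without). There replicate 1 gave 33.3% with the word and 14.2% without, and replicate 2 gave 22.2% and 13.4%, again with overlapping intervals, so a difference at that AT level is not shown. CTCTC alone on the gene's strand gave 43 of 61 (70.5%) and GAGAG alone 20 of 27 (74.1%), so either orientation was alike in share, with intervals that overlap. The word nearest to the gene began a median of 50.5 bp before it in genes with a summit. That search covered 100 bases and genes without a summit were not compared, so no preferred distance is shown. Within the 33 sets of identical copies the word was more frequent in the copies with a summit in 25, less frequent in 1 and equal in 7. Median signal where there was a summit was 169 with the word and 121 without.

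**Figure D4:**
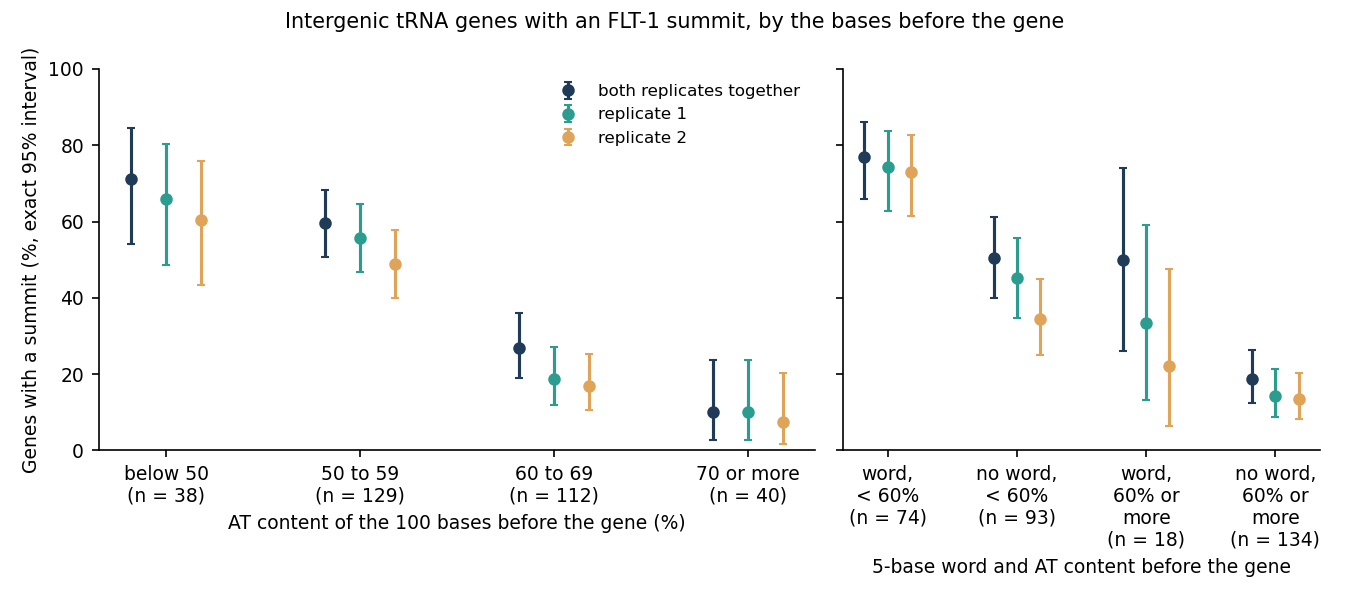
Share of intergenic tRNA genes with a summit (points, exact 95% intervals) by AT content of the 100 bases before the gene (left) and by AT content together with the 5-base word CTCTC or GAGAG (right), in the pooled list and each replicate's list. Over the AT bins of the pooled list the shares are 71.1%, 59.7%, 26.8% and 10%, and the pooled shares are higher with the word than without at either AT level, with intervals that overlap at 60% or more.

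Base composition can also move the recovery and mapping of sequenced fragments, and the part of that in these differences was not tested, since no control library was analysed here. Repeated sequence around the genes was measured from the 31-base windows over each gene and 150 bp on either side. A median of 84.5% of them occurred once in the genome for genes with a summit and 83.9% for genes without. Genes where under 70% occurred once were 6 of 138 (4.35%) with a summit and 23 of 181 (12.7%) without, and 21 of the 23 are among the 76 genes with no pooled ranked region. For those 76 genes the median was 83.4% with a first quartile of 68.2%, against first quartiles of 82.8% and 80.5% in the groups with and without a summit.

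Intergenic tRNA genes are concentrated on X, which holds 180 of the 319 (56.4%), against 32.8% of the tRNA genes inside protein-coding genes and 17.7% of the nuclear sequence. On X 73 of 180 (40.6%, 33.3% to 48.1%) had a summit, and on autosomes 65 of 139 (46.8%, 38.3% to 55.4%). The difference of -6.21 points, X minus autosomes, has an interval of -17.5 to 5.17. It was 0.204 points in replicate 1 and 0.0759 in replicate 2, so no order between X and autosomes can be given. The median pooled signal was 159 (135 to 199) on X and 112 (95.5 to 146) on autosomes. Replicate 1 gave 95.2 on X and 75.2 on autosomes, and replicate 2 gave 73.5 and 66.9, with intervals that overlap in each list. Among autosomes the share ran from 9 of 30 (30.0%, 14.7% to 49.4%) on V to 14 of 22 (63.6%, 40.7% to 82.8%) on III, and all 6 chromosomes' intervals overlap.

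Genes with another tRNA gene within 1000 bp had a summit in 56 of 148 cases (37.8%, 30.0% to 46.2%), and genes with none in 82 of 171 (48.0%, 40.3% to 55.7%). The difference was -10.1 points (-21.1 to 1.22). Counting each summit for its nearest tRNA gene alone, which takes shared summits away from all but 1 gene, made it -19.6 points (-30.1 to -8.49). AT content before the gene moved with this grouping, with medians of 61.0% and 57%. The median pooled signal was 105 for genes with a neighbour and 156 for genes without. On X the shares were 32 of 99 (32.3%) with a neighbour and 41 of 81 (50.6%) without, and on autosomes 24 of 49 (49.0%) and 41 of 90 (45.6%).

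Clusters differed in how many of their members had a summit. Of 62 chains of tRNA genes spaced by at most 1000 bp that held 2 or more intergenic members, 15 had a summit at all members, 17 at some and 30 at none. Of the 15, 12 had 1 summit that counted for both members, and only 2 had as many summits as members. The largest spans chrX:8154445-8156707 with 6 members of 4 amino acids. There F22F1.t6 (methionine) had a signal of 316 and 50% AT before it, F22F1.t7 (isoleucine) had 65.6 and 60%, F22F1.t4 (serine) and F22F1.t5 (aspartate) shared a summit of 157 that lay 21 bp into F22F1.t5, and F22F1.t2 (serine) and F22F1.t3 (aspartate), with 75% and 68.0% AT, had none. The cluster at chrX:14135045-14137010 holds 6 identical histidine genes. Only F28H6.t2 and F28H6.t5 at its ends had a summit, with weak signals of 51.2 and 53.8. The genes between them, F28H6.t7, F28H6.t3, F28H6.t6 and F28H6.t4, had no region in the pooled ranked list either. The part of repeated sequence in this was not tested, so absence of FLT-1 there is not shown. The cluster at chrX:16208263-16209852 holds 4 identical tyrosine genes, of which R11.t1 had a signal of 251, with 161 in replicate 1 and 92.2 in replicate 2. Its neighbours R11.t2, R11.t3 and R11.t4 had none, and the AT content before the gene was 51.0% at R11.t1 and 56.0%, 63.0% and 59% at these 3.

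Whether the share changed with distance to the nearest start of a protein-coding transcript cannot be told from these counts. The pooled shares fell from bin to bin, with wide intervals. A summit was found at 25 of 52 genes (48.1%, 34.0% to 62.4%) under 500 bp, 57 of 128 (44.5%, 35.7% to 53.6%) from 500 to under 2000 bp, 43 of 105 (41.0%, 31.5% to 51.0%) from 2000 to under 5000 bp and 13 of 34 (38.2%, 22.2% to 56.4%) at 5000 bp or more. All intervals overlap, and the first bin exceeded the last by 9.84 points (-13.2 to 31.3). Of the 138 genes, 23 had a summit that also lay from 500 bp before to 200 bp after a coding transcript start.

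**Figure D5:**
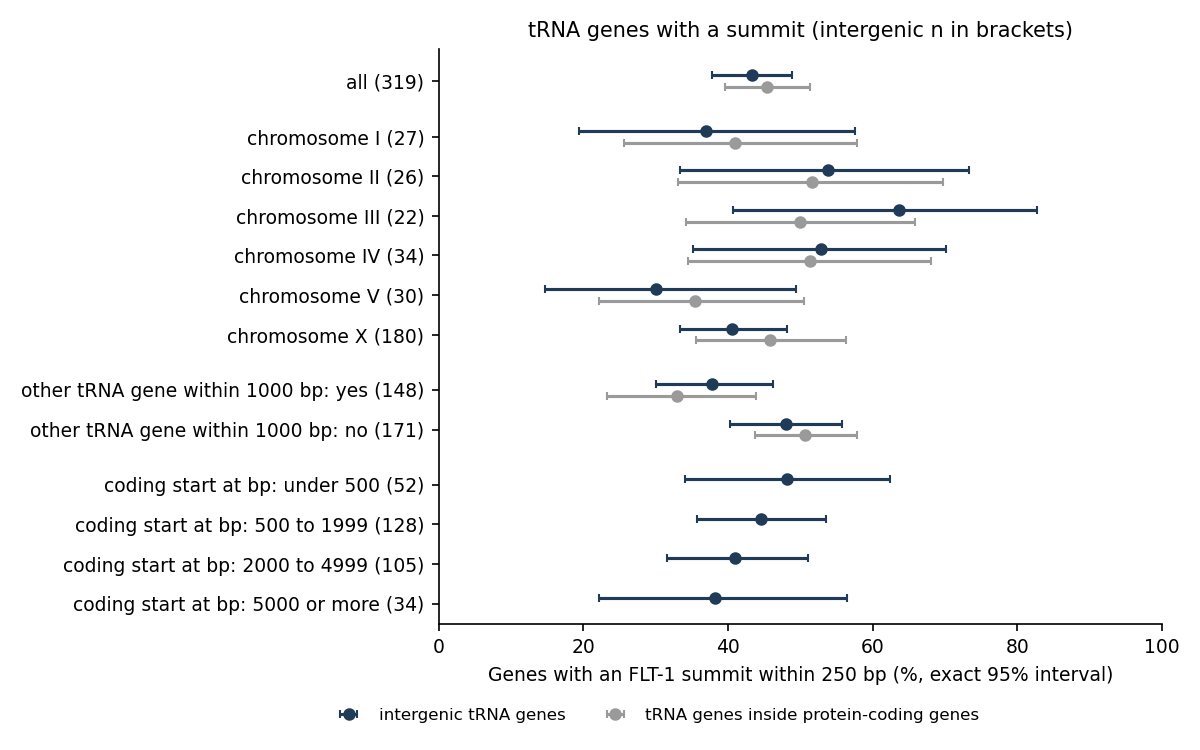
Share of tRNA genes with a summit within 250 bp in the pooled list (points, exact 95% intervals) by chromosome, by another tRNA gene within 1000 bp and by distance to a protein-coding start, for intergenic tRNA genes and, in the first 3 groupings, tRNA genes inside protein-coding genes. Intervals overlap within each grouping, and the intergenic genes as a whole are at 43.3%, against 45.4%.

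Matches to the signals inside the gene gave shares whose intervals overlap in the pooled list. A full A box match, TGGCNNAGT on the gene's strand, was held by 29 genes, of which 17 (58.6%, 38.9% to 76.5%) had a summit, against 121 of 290 (41.7%, 36.0% to 47.6%) of genes without the match. That difference of 16.9 points (-3.66 to 35.7) was 22.4 points (1.89 to 41.1) in replicate 1's list, 19.7 (-0.368 to 39.2) in replicate 2's, 22.1 (1.40 to 40.2) in the conservative list and 23.1 (2.81 to 42.2) with peaks at or above the median signal. It was 6.21 points (-13.1 to 26.5) for summits within 100 bp, so the interval is above 0 in some of these choices and not in others. A B box match, GTTCGANNC, was held by 232, of which 98 (42.2%, 35.8% to 48.9%) had a summit, against 40 of 87 (46.0%, 35.2% to 57%). Of 314 genes with a T run 137 (43.6%) had a summit, and of the 5 without one only W09G10.t3 (threonine) did. Genes of a single copy had a summit in 30 of 74 cases (40.5%), those of 2 to 9 identical copies in 34 of 82 (41.5%) and those of 10 or more in 74 of 163 (45.4%). A match is a description of the letters and not of binding.

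Every amino acid was represented among genes with a summit. Among those with 10 or more intergenic genes, shares were highest for alanine, with 13 of 19 (68.4%, 43.4% to 87.4%), and proline, with 12 of 20 (60%, 36.1% to 80.9%), and lowest for glutamine, with 4 of 15 (26.7%, 7.79% to 55.1%), and tyrosine, with 3 of 11 (27.3%, 6.02% to 61.0%). Asparagine and phenylalanine genes had 1 of 8 each. The 2 genes without a product name in RefSeq, C28G1.t5 and K02D3.t1, had no summit. The intervals of alanine and glutamine overlap, and the medians of AT content before the gene were 58.0% in both.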

How the data were processed

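FLT-1 was mapped by chromatin immunoprecipitation with sequencing in 2 biological replicates of 1 group. The deposited files are peak lists on ce11, per the file lists that accompany them: each replicate has a ranked and a thresholded list, and the replicates together have a ranked, a thresholded and a conservative one, 7 in all as used here. The authors' signal (scale not stated), score and summit offset per peak were used as deposited, and signal was compared only within a list. Neither aligner nor peak caller is given in the sources used here. A peak list gives no read counts, so depth is unknown, and precision is limited by the number of genes.

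Gene spans came from Ensembl release 115, and names, products and sequence from RefSeq WBcel235. A gene had a summit when 1 lay within 250 bp of its span. Where several did, the strongest gave the signal and the one nearest the first base gave the position. Shares have exact Clopper-Pearson 95% intervals, medians have order-statistic intervals, and an interval of a difference combines those of both shares. No p-value was computed. The counting code was tested on simulated data. Python 3.11.15, NumPy 2.4.6, SciPy 1.17.1 and Matplotlib 3.10.9 were used.

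Named genes were the 10 strongest, the 4 of lowest signal in the list and the 4 of highest signal outside it, the 3 largest clusters, the strongest of each chromosome, copies of the 3 most numerous identical sequences with both kinds, and the 3 with the largest change of rank. Any other gene named was chosen after its values were seen. The members, groupings and gene lists were chosen with earlier results of these data known. The AT content, the 5-base words, the wider box cores and the check of 31-base windows were added after values had been seen. Sequences with a stretch of 40 or more bases that also occurs on a chromosome whose sequence is not shown were not printed. Alternatives were other lists, distances, assignments and definitions. The loci carried by the transgene, flt-1 and unc-119, had 0 of the genes within 50 kb.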

Additional observations from a re-analysis of the deposited data

Results flagged for a closer look

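Mitochondrial tRNA genes are outside the comparisons above. In the list of replicate 2, 12 of the 22 mitochondrial tRNA genes had a summit within 250 bp, from 20 mitochondrial peaks, and the lists of replicate 1 and of both replicates together held 0 such peaks. The 12 genes lie close together on 1 small chromosome and are not independent, and the difference was not tested. The share of all mitochondrial genes was not computed, so the count is not shown to be particular to tRNA genes. The cause was not tested.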

How the results depend on the processing

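Most values moved by less than their own interval under the alternatives. The share of intergenic tRNA genes with a summit was 33.9% to 38.2% when either replicate was left out and 34.2% with peaks at or above the median signal alone, and it kept within its interval in the other alternatives. The median signal was 71 to 86.1 in the replicates' own lists, whose scales need not match the pooled one, and 165 with the stronger peaks alone, as that choice fixes. The median summit position was 13 to 17 bp when either replicate was left out. The difference between X and autosomes ran from -6.33 to 0.496 points and was above 0 in 3 of 7 alternatives. That for the full B box match changed sign in the conservative list alone (0.862 points), and that for the full A box match ran from 6.21 to 23.1 points. The wider cores are other motifs, and they gave 23.6 points (-28.3 to 43.9) for the A box and 0.422 (-28.4 to 26.3) for the B box. The difference for genes with a neighbouring tRNA gene ran from -19.6 to -3.27 points and kept its direction in all 9. That between the nearest and farthest bins of distance to a coding start ran from 2.15 to 14.8 points. It kept its direction in all 7, though its main interval was -13.2 to 31.3. The share difference by AT content was 27.5 points with 50 bases before the gene, 22.2 points with 200 bases and 53.4 points for genes with no other tRNA gene within 1000 bp, and it kept its direction in all 10 alternatives. The difference for the 5-base word ran from 30.0 to 42.2 points. Recovery in both replicates was 64.6% when ranked regions down to the lowest thresholded signal were counted. That cut is lenient, at 9.15 in replicate 1 and 5.42 in replicate 2, below the ranked lists' median signals of 13.3 and 10.9. The share of all nuclear genes at that cut was not computed, so 64.6% is not shown to be particular to these genes. The cause of these moves was not tested. Leaving out genes near the transgene's loci changed no value, since none lies there. With depth unknown, how many genes were missed for want of reads cannot be given.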

Other observations

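The 4 intergenic tRNA genes with a summit in both replicates' lists and none in the pooled list all lie on X: T25B6.t2 (threonine), F17A2.t1 (arginine), and the neighbours rte-5 (glutamate) and F02D10.t2 (serine), which share their summit. X holds 56.4% of all intergenic tRNA genes. T25B6.t2 had a signal of 47.7 in replicate 1 and 48.1 in replicate 2, F17A2.t1 had 66.4 and 47.6, and the neighbours had 50.7 and 44.9. The nearest summit of the pooled ranked list was 770 bp from T25B6.t2, 4308 bp from F17A2.t1, 730 bp from rte-5 and 926 bp from F02D10.t2, so the pooled ranked list had no summit within 250 bp of them. F17A2.t1 had a summit in the conservative list, and the other 3 had none there. These genes were chosen after their values were seen, and the cause was not tested.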
